A study of Homo sapiens with 6 samples.

Results

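The ATP-binding cassette (ABC) transporter genes were followed in HT29 cells, an established human colorectal adenocarcinoma line, after 24 h with YM155, or with its solvent DMSO alone (the controls). Members were all rows whose symbol is ABC, a subfamily letter from A to G and a number, which took 46 of the 26255 rows; rows with longer symbols, such as ABCC6P1, and family members with other symbols were left out by that rule. Each treatment had 3 libraries of messenger RNA, and nothing in the labels says whether these came from separate cultures, so p-values measure the spread between these libraries, which may be technical. No dose, other agent or genetic change is named for either group, and the 3 library titles of the treated group write YM115 where the treatment label writes YM155. Levels are FPKM (fragment counts scaled to transcript length and to library size, by a rule not given), so they are already per length and can be set side by side between genes. In such bulk libraries fewer cells that carry a message and less of it per cell cannot be told apart.

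ABC proteins use ATP, bound at a pair of conserved nucleotide-binding domains, to move substrates across a membrane. Members of subfamilies B, C and G in the plasma membrane carry drugs and conjugates out of cells, those of subfamily A mostly move lipids, others serve mitochondria, peroxisomes or lysosomes, and subfamilies E and F have no membrane domain and act in translation. YM155 itself is known as a substrate of the exporter P-glycoprotein, the product of ABCB1, and enters cells through the carrier SLC35F2. In the gut, ABCG2 and ABCC2 sit on the luminal face of enterocytes, and ABCC1 and ABCC3 on the basolateral face.

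The upstream sequences of 4 members are shown because they belong to the largest fall on log2(FPKM + 1) among tested members (ABCA1), to the largest rise for which a sequence was at hand (ABCF2), and to a member that fell and a member that rose while sharing a short motif (ABCC4 and ABCF1). Each is the 250 bases before the annotated start site, 5′ to 3′ on the gene's strand, from RefSeq (GRCh38.p14), and capitals mark the motifs named below. ABCA1 lies at chr9:104928156-104928405 (minus strand), ABCF2 at chr7:151227206-151227455 (minus strand), ABCC4 at chr13:95301452-95301701 (minus strand) and ABCF1 at chr6:30571192-30571441 (plus strand).
ABCA1: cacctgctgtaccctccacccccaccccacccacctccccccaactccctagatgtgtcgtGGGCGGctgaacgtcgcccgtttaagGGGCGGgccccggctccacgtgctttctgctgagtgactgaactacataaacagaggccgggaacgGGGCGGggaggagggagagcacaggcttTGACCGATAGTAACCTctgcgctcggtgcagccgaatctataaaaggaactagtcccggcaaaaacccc
ABCF2: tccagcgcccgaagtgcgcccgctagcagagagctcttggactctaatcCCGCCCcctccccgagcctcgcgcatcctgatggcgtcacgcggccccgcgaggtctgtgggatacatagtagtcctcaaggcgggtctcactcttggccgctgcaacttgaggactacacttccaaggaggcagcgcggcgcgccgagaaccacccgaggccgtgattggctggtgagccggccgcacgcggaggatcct
ABCC4: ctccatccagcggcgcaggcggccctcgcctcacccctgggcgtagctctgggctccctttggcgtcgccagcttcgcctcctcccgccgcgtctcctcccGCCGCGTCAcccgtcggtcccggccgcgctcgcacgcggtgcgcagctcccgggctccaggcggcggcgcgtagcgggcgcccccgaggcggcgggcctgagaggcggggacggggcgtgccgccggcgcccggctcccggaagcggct
ABCF1: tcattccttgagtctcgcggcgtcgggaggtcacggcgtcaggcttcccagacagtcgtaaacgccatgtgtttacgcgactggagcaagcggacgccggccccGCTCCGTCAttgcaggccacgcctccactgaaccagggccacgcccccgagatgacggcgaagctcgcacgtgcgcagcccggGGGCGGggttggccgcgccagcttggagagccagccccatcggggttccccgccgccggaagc

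Motifs were searched as letters on both strands of these 250 bases, over every promoter that RefSeq lists for a gene. The core of the antioxidant response element bound by NRF2, TGACNNNGC, was present for 7 of the 20 tested members with a promoter, 2 of 6 that rose and 3 of 9 that fell, against 16.1% of 8973 tested genes with a promoter. It stands in capitals in ABCC4, which fell, and as the first run of capitals in ABCF1, which rose. The core of the response element shared by C/EBP and ATF factors, TGATGNAA, was found for 0 of the 20, against 2.24% of tested genes. The GC box GGGCGG, the site class of Sp1, was present for 17 of the 20 against 75.0% of tested genes, with 3 copies in ABCA1. A direct repeat with a 4-base gap, the arrangement bound by the oxysterol receptors (LXR), was searched in the loose form AGGTNANNNNNGGTCA, and of the 20 members ABCA1 alone held it, as the last run of capitals, against 0.1% of tested genes. The last 2 motifs were added after the values were seen, and the loose form of the repeat was written from the ABCA1 sequence itself, so its presence there is no finding. These matches describe letters and say nothing of binding.

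The libraries formed 2 tight groups, with Pearson correlations across genes of 0.992 to 0.994 within and 0.860 to 0.878 between treatments. The sizes of single-read steps in low values gave the reads behind 1 FPKM, relative to DMSO replicate 1. These were 0.561, 0.656 and 0.572 in the YM155 libraries and 1.003 and 0.898 in the other DMSO libraries. Scarce members thus rest on fewer reads after YM155, while total reads per library are not known. Of 10 colon epithelium markers 9 reached 1 FPKM, and of 6 fibroblast and 4 endothelial markers 0 did. Of 5 leukocyte markers CD68, LYZ and CD79A did, and PTPRC and CD3E stayed below it. The summed level of the 5 was 1815 to 2080 FPKM in controls and 2009 to 2149 FPKM after YM155, mostly LYZ. The part of these markers in the results was not tested. BIRC5, the survivin gene that YM155 was described to suppress, was at 21.6, 20.98 and 22.8 FPKM in controls and at 7.13, 6.07 and 5.89 FPKM after YM155.

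Of the 46 members 25 reached 1 FPKM in at least 3 libraries and were tested; 9 rose, 9 fell and 7 missed the threshold (limma on log2(FPKM + 1), Benjamini-Hochberg adjusted p under 0.05). Over all 12035 tested genes 84.7% passed, 43.6% higher and 41.0% lower, so the count of changed members is no sign that the family stands apart. The groups did not overlap for 20 of the 25, against 85.9% of tested genes. The members' median log2 fold change was -0.0531, beside 0.0245 over all tested genes. Summed over the 46 rows, ABC messages held 0.0632 ± 0.000566% of the FPKM total in controls and 0.0667 ± 0.000528% after YM155 (SD, n = 3), a ratio of 1.06. The summed share moved little while single members moved several-fold in opposite directions.

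**Figure D1:**
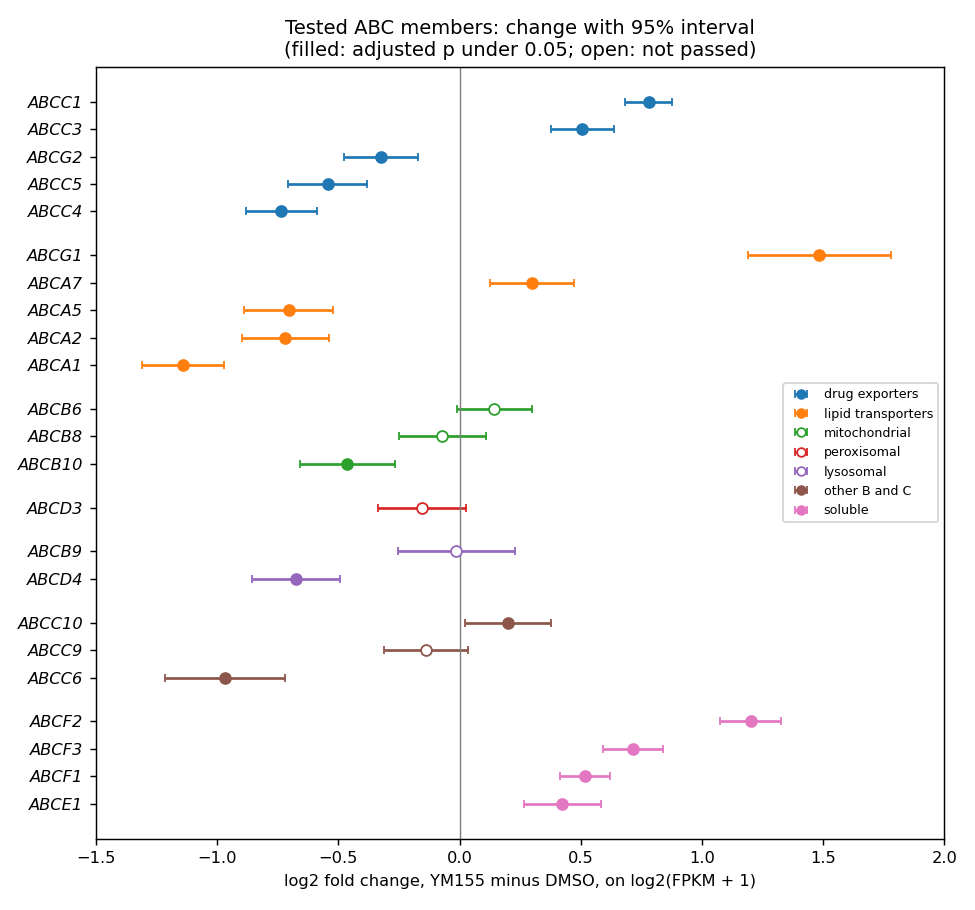
Log2 fold change (YM155 minus DMSO, on log2(FPKM + 1)) of 23 tested members by role, with the 95% interval from limma; filled points passed an adjusted p of 0.05. The 4 soluble members all lie right of 0, the exporters and lipid transporters lie on both sides, and ABCG1 (1.48) and ABCA1 (-1.14) mark the ends.

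The drug exporters split. The 2 most abundant, ABCC1 and ABCC3, rose, and the next 3, ABCC4, ABCC5 and ABCG2, fell. Thus 2 of 5 tested exporters rose and 3 fell (median log2 fold change -0.32), beside 43.6% and 41.0% of all tested genes. ABCC3, which exports glucuronide and bile acid conjugates at the basolateral face, was the most abundant member of the whole family in every library. Its level was 96.9, 104 and 93.1 FPKM in controls and 148, 132 and 139 FPKM after YM155, so all treated libraries lay above all controls. This was a 1.42-fold rise (log2 fold change 0.51, SE 0.06, adjusted p = 2.8e-05 by limma). The rise of ABCC3 was no longer called with quantile normalization (log2 fold change 0.0767, or 0.16 against the all-gene median; adjusted p = 0.23 by limma).

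ABCC1, the multidrug resistance protein that exports glutathione conjugates and oxidised glutathione, was at 26.9, 27.2 and 26.7 FPKM in controls and at 48.1, 47.1 and 45.6 FPKM after YM155. The spread within each group was small beside the gap, and ABCC1 had the lowest p of the exporters (1.74-fold, log2 fold change 0.78, SE 0.04, adjusted p = 2.3e-07 by limma). ABCC4, which exports cyclic nucleotides and prostaglandins, moved the other way, from 10.6, 11.1 and 11.4 FPKM to 6.69, 6.09 and 5.94 FPKM (1.77-fold lower, a log2 fold change of -0.74 with SE 0.06, adjusted p = 4.6e-06 by limma). The ratio of ABCC1 to ABCC4 was 2.53, 2.46 and 2.33 in controls and 7.19, 7.73 and 7.67 after YM155, with no overlap between groups. ABCC1 and ABCC4 kept their directions and calls under each of the 4 other scalings.

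ABCC5, another exporter of cyclic nucleotides and of organic anions, was at 7.79, 7.93 and 7.87 FPKM in controls and at 5.32, 4.57 and 5.38 FPKM after YM155 (1.55-fold lower, a log2 fold change of -0.54 with SE 0.07). ABCG2, the breast cancer resistance protein of the luminal membrane, was at 5.88, 6.45 and 6.47 FPKM in controls and at 4.87, 4.95 and 4.58 FPKM after YM155. Its fall was the smallest among the exporters, 1.31-fold (log2 fold change -0.32, SE 0.07, adjusted p = 0.0014 by limma), but the groups did not overlap. Both falls were called under each of the 4 other scalings.

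ABCB1 and ABCC2 were too scarce to be tested. ABCB1, the P-glycoprotein gene, was listed at 0, 0.0243 and 0.0362 FPKM in controls and at 0.0290, 0.0619 and 0.0142 FPKM after YM155, and the groups overlapped. These values were whole multiples of a single step within a tolerance of 0.1 once each library's step size was taken into account, namely 0, 3 and 4 steps in controls and 2, 5 and 1 steps after YM155. If a step is 1 read, the message of this exporter of YM155 was seen in 7 reads over the DMSO libraries and 8 over the YM155 libraries, and a change was not detectable at this depth. ABCC2, the luminal exporter of glutathione and bilirubin conjugates, was at 0.196, 0.167 and 0.148 FPKM in controls and at 0.611, 0.671 and 0.514 FPKM after YM155. All treated libraries lay above all controls, at a ratio of means of 3.51. Without the filter on low values the log2 fold change of ABCC2 was 0.45 (SE 0.04, adjusted p = 0.00017 by limma), a scale that understates the change of so scarce a message.

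**Figure D2:**
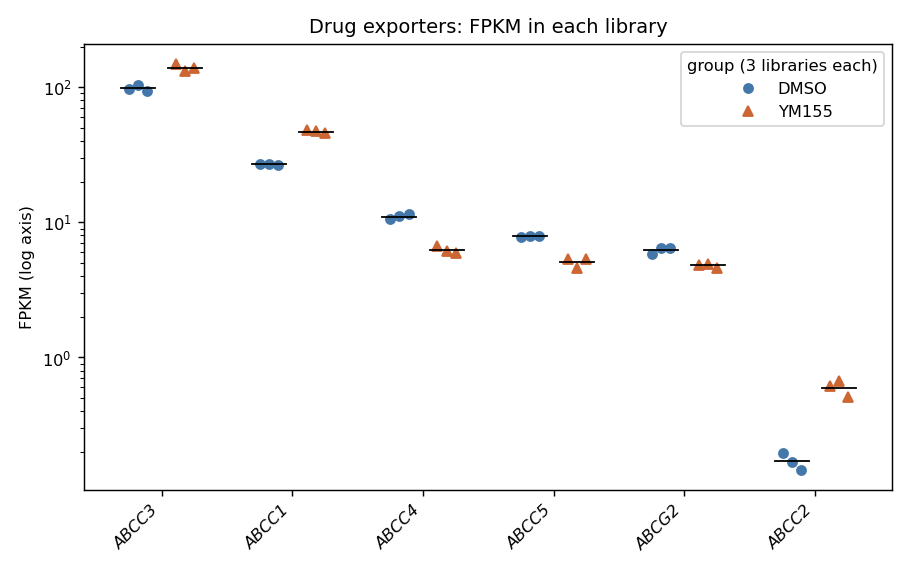
FPKM (log axis) of 6 drug exporters in each DMSO library (circles) and YM155 library (triangles), with a bar at each group mean. ABCC3, ABCC1 and ABCC2 are higher and ABCC4, ABCC5 and ABCG2 lower after YM155, with no overlap for any; ABCB1, listed at 0 in 1 library, is not drawn.

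Summed over the 7 exporter genes, the level was 150 ± 5.75 FPKM in controls and 203 ± 9.47 FPKM after YM155 (SD, n = 3). The sum over all rows was 547222 ± 13938 FPKM and 684616 ± 9919 FPKM, and was thus higher after YM155 as well. ABCC3 alone made up 65.2 ± 1.22% of the exporter sum in controls and 68.6 ± 1.00% after YM155. The sum thus describes mainly ABCC3.

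Among the lipid transporters (subfamily A and ABCG1), 2 of 5 tested members rose and 3 fell (median log2 fold change -0.70), beside 43.6% and 41.0% of all tested genes. The best known pair of cholesterol exporters parted. ABCG1, which passes cholesterol to high density lipoprotein, was at 6.67, 7.63 and 6.92 FPKM in controls and at 23.7, 25.0 and 16.9 FPKM after YM155. This 3.09-fold rise was the largest of any tested member (log2 fold change 1.48, SE 0.13, adjusted p = 4.5e-06 by limma), although YM155 replicate 3 lay below the other treated libraries. ABCA1, which loads cholesterol and phospholipid onto apolipoprotein A-I, fell 3.47-fold, from 3.34, 3.39 and 3.13 FPKM to 0.907, 1.05 and 0.890 FPKM (log2 fold change -1.14, SE 0.07, adjusted p = 6.6e-07 by limma). The ratio of ABCG1 to ABCA1 was 2.15 ± 0.135 in controls and 22.98 ± 3.64 after YM155 (SD, n = 3). Both are textbook targets of the oxysterol receptors, and both kept direction and call under each of the 4 other scalings.

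ABCA2, a transporter of endolysosomal membranes, was at 17.5, 19.5 and 17.4 FPKM in controls and at 11.9, 9.80 and 10.3 FPKM after YM155 (1.70-fold lower). In controls it was the most abundant lipid transporter, and after YM155 ABCG1 was. ABCA5, of lysosomes and late endosomes, fell from 1.33 ± 0.105 to 0.430 ± 0.0572 FPKM (SD, n = 3), a log2 fold change of -0.70. ABCA7, an ABCA1 relative linked to phospholipid export and phagocytosis, was 1.31-fold higher, from 2.96 ± 0.109 to 3.88 ± 0.341 FPKM (log2 fold change 0.30, adjusted p = 0.0049 by limma). The call of ABCA7 was lost after upper-quartile and sum scaling, at log2 fold changes of 0.0289 and 0.0489 (0.31 against the all-gene median with each). The other 8 members of this class stayed below 1 FPKM. ABCA10 was the highest of them, at 0.568, 0.554 and 0.666 FPKM in controls and 0.437, 0.401 and 0.408 FPKM after YM155, while ABCA3, ABCA4, ABCA6, ABCA9, ABCA12 and ABCA13 were at most 0.132 FPKM in any library and ABCA8 was listed at 0 in all. Of these ABCA4, the retinoid transporter gene of photoreceptors, counted 56 steps over the DMSO libraries and 11 over the YM155 libraries, and ABCA3, of surfactant lipids, 39 and 9. Since 1 FPKM rested on fewer reads after YM155, steps overstate these falls. In mean FPKM they were 3.10-fold for ABCA4 and 2.69-fold for ABCA3.

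The soluble members, which lack membrane domains, were the class in which every member rose (4 of 4, median log2 fold change 0.62). ABCF2 rose most, from 21.5, 23.9 and 22.98 FPKM to 51.3, 55.9 and 53.8 FPKM (2.36-fold, log2 fold change 1.2, SE 0.06, adjusted p = 7.3e-08 by limma). ABCF3 rose 1.69-fold, from 14.6 ± 0.537 to 24.6 ± 1.11 FPKM, and ABCF1, a factor of translation initiation, rose 1.45-fold, from 19.3 ± 0.607 to 28.1 ± 0.167 FPKM (SD, n = 3). ABCE1, which splits ribosomes for recycling, was at 30.3, 28.2 and 31.2 FPKM in controls and at 36.4, 42.9 and 42.3 FPKM after YM155 (1.36-fold higher, log2 fold change 0.42, adjusted p = 0.00037 by limma). The 3 ABCF genes stayed called under each of the 4 other scalings, whereas ABCE1 was no longer called under upper-quartile, sum or quantile scaling (log2 fold changes of 0.0846, 0.11 and 0.0527, or 0.37, 0.37 and 0.14 against the all-gene median). Of 5 partners of ABCE1 in ribosome release and recycling 4 were tested, and these 4 rose with the deposited values, beside 43.6% of all tested genes: the release factor genes ETF1 (2.26-fold) and GSPT1 (1.61-fold), and the rescue factor genes PELO (2.14-fold) and HBS1L (1.2-fold). The call of HBS1L was lost, leaving 3, in those same 3 scalings (log2 fold changes of -0.0814, -0.058 and 0.15, or 0.20, 0.20 and 0.24 against the all-gene median), and without DMSO replicate 2, YM155 replicate 2 or YM155 replicate 3 (adjusted p of 0.074, 0.074 and 0.051 by limma). GSPT2 was listed at 0 in every library.

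**Figure D3:**
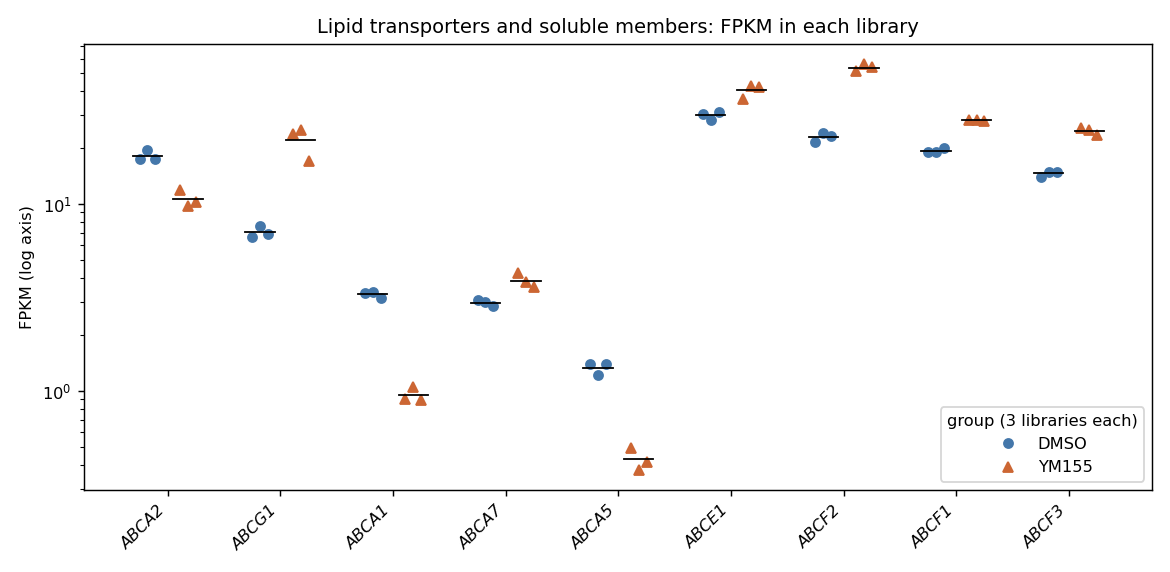
FPKM (log axis) of 5 lipid transporters and 4 soluble members in each DMSO library (circles) and YM155 library (triangles), with a bar at each group mean. ABCG1 and ABCA7 are higher and ABCA2, ABCA1 and ABCA5 lower after YM155, and all 4 soluble members are higher.

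Most mitochondrial members missed the threshold. Of 4 genes, 1 fell, 0 rose and 3 did not pass (median log2 fold change -0.0102), where 41.0% of all tested genes fell and 43.6% rose. ABCB6, a porphyrin transporter placed in mitochondrial and other membranes, was at 4.82 ± 0.206 FPKM in controls and 5.43 ± 0.326 FPKM after YM155 (adjusted p = 0.076 by limma). ABCB8, of mitochondrial iron export, was at 4.25 ± 0.270 and 3.998 ± 0.372 FPKM (adjusted p = 0.42 by limma). ABCB10, needed for haem synthesis, fell 1.57-fold, from 3.17 ± 0.404 to 2.01 ± 0.0243 FPKM (SD, n = 3; adjusted p = 0.00075 by limma), a call that ended with quantile normalization (log2 fold change -0.18, adjusted p = 0.08 by limma). Of 18 genes of haem and iron-sulfur cluster synthesis, 5 rose, 10 fell and 3 did not pass, beside 43.6% and 41.0% of all tested genes. Upper-quartile and sum scaling gave 2 higher and 14 lower each, and quantile normalization 2 and 12. SLC25A37, the iron importer of mitochondria, rose 4.20-fold and ALAS1, the first enzyme of haem synthesis, 2.49-fold, while GLRX5 missed the threshold (22.4 ± 2.69 FPKM in controls and 20.1 ± 0.711 FPKM after YM155) but was called lower in those 3 scalings and without DMSO replicate 2.

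Neither tested peroxisomal member passed, where 84.7% of all tested genes did. ABCD3, which carries branched and long-chain acyl groups into peroxisomes, was at 20.5, 20.6 and 23.7 FPKM in controls and at 17.4, 20.7 and 19.9 FPKM after YM155, with overlapping groups (95% interval of the log2 fold change -0.34 to 0.0265, adjusted p = 0.097 by limma). With upper-quartile, sum and quantile scaling ABCD3 was called lower, at log2 fold changes of -0.49, -0.46 and -0.44 (-0.21, -0.20 and -0.36 against the all-gene median). ABCD2 was listed at 0 in every library. Around them, 9 of 15 genes of peroxisomal import and fatty acid oxidation fell, 3 rose and 3 did not pass. Over all tested genes 41.0% fell and 43.6% rose, and whether these genes differ from others was not tested. After upper-quartile, sum and quantile scaling 12, 12 and 11 were lower. CAT, the catalase gene, fell 1.99-fold and SCP2, of branched-chain oxidation, 2.43-fold, and PEX19, the chaperone that delivers ABCD proteins to the membrane, missed the threshold (16.8 ± 0.402 FPKM in controls and 16.7 ± 0.698 FPKM after YM155) but was called lower in those 3 scalings.

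The lysosomal class held 2 members and left out ABCA2 and ABCA5, which were counted as lipid transporters. Its member ABCD4, which releases cobalamin (vitamin B12) from lysosomes, fell from 7.16, 8.84 and 7.60 FPKM to 4.51, 4.65 and 4.46 FPKM. The fall was 1.73-fold (log2 fold change -0.67, adjusted p = 3.7e-05 by limma). ABCB9, a peptide transporter, was at 1.16, 1.34 and 1.15 FPKM in controls and at 0.884, 1.34 and 1.38 FPKM after YM155 and missed the threshold. MMACHC, which receives cobalamin in the cytosol, fell 6.60-fold, MMADHC, which directs it onward, rose 1.49-fold, and LMBRD1, the lysosomal partner of ABCD4, missed the threshold (12.3 ± 0.795 FPKM in controls and 11.7 ± 0.310 FPKM after YM155). LMBRD1 was called lower with upper-quartile, sum and quantile scaling, at log2 fold changes of -0.39, -0.36 and -0.26 (-0.10, -0.10 and -0.17 against the all-gene median).

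Of the other members of subfamilies B and C, ABCC6, an ATP-releasing transporter of liver and kidney, was 5.45-fold lower, at 1.34, 1.36 and 1.77 FPKM in controls and at 0.267, 0.142 and 0.412 FPKM after YM155 (log2 fold change -0.97, SE 0.11). Its reads can be shared with the near-identical pseudogenes ABCC6P1, at 0.218 to 0.348 FPKM in controls and 0 to 0.0259 FPKM after YM155, and ABCC6P2, at 0.945 to 1.46 FPKM and 0 to 0.259 FPKM, so its level is uncertain. ABCC10, a broad exporter, was 1.2-fold higher at the edge of the threshold (2.75 ± 0.274 and 3.30 ± 0.113 FPKM, adjusted p = 0.038 by limma), and its call ended without DMSO replicate 1 or 3 and without YM155 replicate 2 or 3 (adjusted p of 0.071, 0.15, 0.093 and 0.071 by limma). With upper-quartile and sum scaling the log2 fold change of ABCC10 turned to -0.0637 and -0.0436 (0.22 against the all-gene median with each). ABCC9, a sulfonylurea receptor that regulates potassium channels, was at 3.68, 3.22 and 3.34 FPKM in controls and 2.78, 3.07 and 3.18 FPKM after YM155 and missed the threshold (adjusted p = 0.12 by limma).

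ABCB5, ABCC8, ABCC11, ABCC12 and ABCC13 stayed below 1 FPKM, with ABCC12 listed at 0 throughout and ABCB5 at 1 step in 1 library. ABCC13, a pseudogene, was listed at 0 in the DMSO libraries and at 0.321, 0.183 and 0.105 FPKM after YM155, which is 3, 2 and 1 steps. ABCC8, the sulfonylurea receptor of beta cells, reached at most 0.299 FPKM and ABCC11 at most 0.0767 FPKM. None of the 5 bile and sterol exporters outside these classes was tested. ABCB4, which flips phosphatidylcholine into bile, was the highest of them, at 0.516, 0.444 and 0.336 FPKM in controls and 0.0902, 0.0924 and 0.142 FPKM after YM155, so the treated libraries lay below all controls. ABCB11, the bile salt export pump, counted 1 step over the DMSO libraries and 8 over the YM155 libraries, and ABCG4, ABCG5 and ABCG8 at most 2 steps over either group.

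The 3 family members that carry other symbols were also measured. CFTR, the chloride channel of subfamily C, was at 14.4, 14.4 and 14.9 FPKM in controls and at 2.81, 1.78 and 2.09 FPKM after YM155, a 6.55-fold fall (log2 fold change -2.29, SE 0.11, adjusted p = 8.8e-08 by limma). In log2 fold change this was a larger fall than that of any tested member in the rule. TAP1 and TAP2, the subunits of the peptide transporter that supplies MHC class I, rose together, TAP1 from 1.11, 1.31 and 0.934 FPKM to 2.34, 2.22 and 2.65 FPKM (2.15-fold), and TAP2 from 3.88, 3.80 and 3.63 FPKM to 6.23, 7.04 and 6.58 FPKM (1.75-fold).

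Of 17 receptors and factors known to regulate ABC genes, 14 were tested, of which 11 rose and 3 fell (median log2 fold change 0.63). Over all tested genes 43.6% rose and 41.0% fell, and whether these factors differ from other genes was not tested. With upper-quartile and sum scaling 8 of the 14 were called higher. PPARD, a fatty acid receptor, rose 7.72-fold, and AHR, the receptor of aromatic xenobiotics, 4.71-fold. NFE2L2, encoding NRF2, rose from 43.1 ± 1.67 to 118 ± 7.53 FPKM, and NR1I2, the pregnane X receptor that induces ABCB1, was at most 0.110 FPKM. The LXR genes, whose products act on ABCA1 and ABCG1, differed: NR1H2 (LXR beta) rose 2.74-fold, from 18.6 ± 1.01 to 50.9 ± 2.17 FPKM, and NR1H3 (LXR alpha) fell 1.23-fold, from 16.8 ± 0.651 to 13.6 ± 1.64 FPKM (SD, n = 3). Of 11 LXR targets outside the family, 6 rose, 3 fell and 2 did not pass, beside 43.6% higher and 41.0% lower among all tested genes. Whether these targets differ from other genes was not tested. LPCAT3 lost its call under upper-quartile scaling, under sum scaling and under quantile normalization. Its log2 fold changes there were -0.11, -0.0858 and -0.0749 (0.17, 0.17 and 0.00806 against the all-gene median). SCD lost its call under quantile normalization (-0.0140). APOE, which had missed the threshold, was called lower by upper-quartile and by sum scaling. FASN, the fatty acid synthase gene, rose 1.76-fold, while SMPDL3A missed the threshold (2.16 ± 0.672 and 2.52 ± 0.345 FPKM) but was called higher with quantile normalization. All 8 NRF2 targets taken as a reference rose, by a median log2 fold change of 2.71, with SRXN1 25.9-fold and GCLC 20.7-fold higher; this list was known from earlier results to rise.

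Of 19 tested enzymes that make conjugates of the kind carried by ABCC proteins, 14 fell and 3 rose (median log2 fold change -0.39), beside 41.0% and 43.6% of all tested genes. The counts are a description, and whether these enzymes differ from other genes was not tested. MGST1, among the 3 that rose, was called lower with upper-quartile, sum and quantile scaling (log2 fold changes of -0.21, -0.18 and -0.31). Its call was also lost without DMSO replicate 1 or 2 and without YM155 replicate 2 or 3. UGT1A10, not called with the deposited values, was called lower in the same scalings. SULT2B1, a sterol sulfotransferase, rose 11.8-fold, to 178 ± 7.91 FPKM (SD, n = 3), MGST2, a microsomal glutathione transferase, fell 3.09-fold, and GSTO1 missed the threshold (113 ± 1.76 and 107 ± 8.67 FPKM) but was called lower without YM155 replicate 1 and in 3 scalings (upper-quartile, sum and quantile). Of 18 solute carriers of drug and organic ion uptake, 11 were tested, of which 7 rose and 3 fell (median log2 fold change 0.54). Over all tested genes 43.6% rose and 41.0% fell, and whether these carriers differ from other genes was not tested. SLCO4A1, an organic anion carrier, rose 2.27-fold, SLC29A1, the equilibrative nucleoside carrier, fell 1.90-fold and SLC29A2 missed the threshold (24.1 ± 1.21 and 24.9 ± 2.40 FPKM) but was called lower in those 3 scalings, at log2 fold changes of -0.29, -0.27 and -0.28 (-0.0116, -0.00988 and -0.20 against the all-gene median). SLC35F2, the YM155 uptake carrier, was at 42.6 ± 0.814 FPKM in controls and 54.5 ± 1.32 FPKM after YM155 (SD, n = 3), 1.28-fold higher. That call was lost in the same 3 scalings, at log2 fold changes of 0.00658, 0.0322 and -0.0945 (0.29, 0.29 and -0.0116 against the all-gene median). SLC35F2 was thus measured well above 1 FPKM in both groups, where ABCB1 was near 0.

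Abundance and scaling moved with these results. Tested genes were cut into 10 equal groups by mean FPKM over all 6 libraries, a mean that a fall itself lowers. The line after the 6 scarcer groups was not planned, and it lies just above the group of ABCA2, the most abundant member that fell. All 9 members that fell were in these 6 groups, as were 72.2% of all genes that fell. Of the 9 that rose 3 were there, as were 46.6% of all genes that rose. The all-gene median of the log2 fold change was -0.39 in the group that holds ABCA1, 0.16 in that of ABCG1 and ABCA2, 0.37 in that of ABCC1, ABCE1 and ABCF2, and 0.31 in that of ABCC3. The part of abundance in the members' changes was not tested. Upper-quartile, sum and quantile scaling moved the median of all genes by -0.31, -0.28 and -0.11, and the share of higher among all calls from 51.5% to 36.4%, 37.4% and 45.8%. Of the 18 called members 13 kept direction and call under all 4 other scalings. Each of the 7 members that were not called with the deposited values was called in at least 1 other scaling, among them ABCB8, ABCC9 and ABCD3 as lower with upper-quartile and sum scaling, and ABCB6 and ABCB9 as higher with quantile normalization. The 13 stable calls were, as higher, ABCC1, ABCF1, ABCF2, ABCF3 and ABCG1 and, as lower, ABCA1, ABCA2, ABCA5, ABCC4, ABCC5, ABCC6, ABCD4 and ABCG2.

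**Figure D4:**
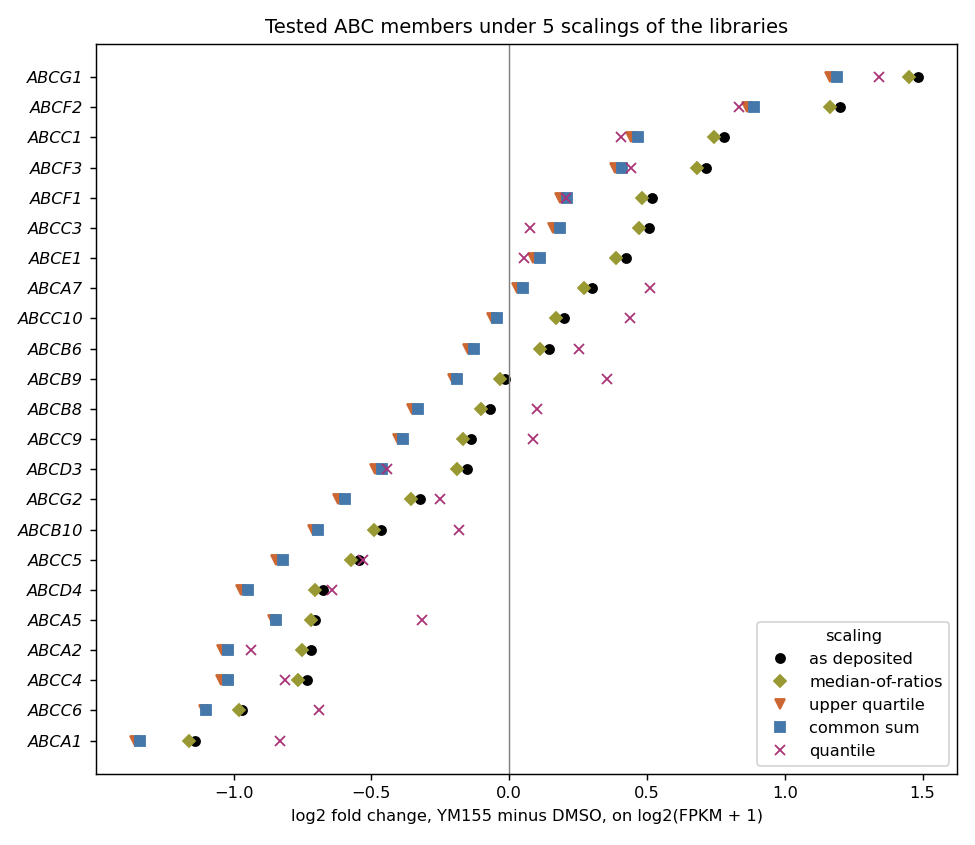
Log2 fold change of 23 tested members (YM155 minus DMSO, on log2(FPKM + 1)) with the deposited values and after each of 4 other scalings of the libraries. Points of ABCG1, ABCF2 and ABCC1 stay right of 0 and those of ABCA1, ABCC6 and ABCC4 left of 0, while the members between ABCC10 and ABCC9 cross it.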

How the data were processed

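The authors deposited FPKM values for each library, keyed by gene symbol. Total RNA went into a stranded kit for mRNA, per the labels' protocols. Cufflinks 2.2.1, Cuffdiff, TopHat2 2.1.1, SAMtools 1.2 and Bowtie2 2.3.5.1 are named, with build hg19, per the submitters' processing notes. Settings, annotation and strand use were not given in the sources used here, so overlapping and antisense genes are uncertain. Read totals are not given either. Relative depth, meaning reads per FPKM, was taken from the most frequent ratio of values under 0.1 FPKM between libraries, and multiples of that step were called whole within 0.1. Genes with at least 1 FPKM in at least 3 libraries were tested on log2(FPKM + 1) with limma 3.58.1 in R 4.3.3 (eBayes with trend, two-sided, Benjamini-Hochberg over all tested genes), without a replicate block, and the code was tested on simulated data. Folds are ratios of mean FPKM; log2 fold changes understate those of scarce genes. Members and lists were chosen with earlier results of these data known. Named were all members, values per library for tested exporters, for called log2 fold changes of at least 1 in size and for the most abundant member of each class, and from other lists the 2 lowest p values and the most abundant gene missing the threshold, or all of lists of at most 5 genes; other genes were chosen after their values were seen. Some genes that the rule names are not reported here, singly or in figures, but are in the counts. Promoters came from RefSeq (GRCh38.p14), matching 35 of 46 members. Alternatives were offsets of 0.1 and 0.5, no filter, a mean of at least 5 FPKM, 4 scalings, eBayes without trend, a replicate block and leaving out each library.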

Additional observations from a re-analysis of the deposited data

How the results depend on the processing

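Of the members, 9 were called higher and 9 lower. Left-out libraries gave 8 to 9 higher and 9 to 9 lower. Upper-quartile and sum scaling gave 6 higher and 14 lower each, quantile normalization 9 and 10, a mean of at least 5 FPKM 7 and 5 (fewer genes tested), and no filter 11 and 13. Over all genes the mean of at least 5 FPKM left 2922 lower calls. By class, the exporters called higher were 1 with quantile normalization. The lipid transporters called higher were 1 with upper-quartile scaling, sum scaling and a mean of at least 5 FPKM, and those called lower 6 without a filter and 1 with that mean. The mitochondrial members called lower were 3 with upper-quartile and sum scaling and 0 with that mean, and 1 was called higher with quantile normalization. The peroxisomal members called lower were 2 under upper-quartile scaling, 2 under sum scaling and 1 under quantile normalization. Log2 fold changes turned with upper-quartile and sum scaling for ABCB6 (-0.15 and -0.13) and ABCC10 (-0.0637 and -0.0436), and with quantile normalization for ABCB8 (0.10), ABCB9 (0.36) and ABCC9 (0.0864). The cause was not tested. ABCB9 ranged from -0.0748 to 0.0946 over left-out libraries and turned to 0.0257 without DMSO replicate 2 and 0.0946 without YM155 replicate 1. Same-numbered libraries did not deviate together (correlations of -0.0710, -0.15 and -0.12 for numbers 1 to 3, and no library correlated best with its own number). Deviations within a group of 3 libraries are tied to each other, so these correlations cannot exclude a shared culture or day. With the replicate block 8 members were called higher and 9 lower, since ABCC10 was not called (log2 fold change 0.20, adjusted p = 0.061 by limma), and over all genes 5147 higher and 4861 lower. Depth limits the members under 1 FPKM most, above all with YM155.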
